A study of Homo sapiens with 9 samples.

Results

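The 34 genes described here belong to the oxidative stress programme controlled by the transcription factor NRF2 and to the glutathione, thioredoxin, peroxiredoxin and pentose phosphate systems. They were taken as a list by gene symbol from the 26830 genes in the deposited tables, and all 34 were found. The data are RNA sequencing of poly(A) RNA from cells labelled NB4, a human line made from an acute promyelocytic leukaemia, although the labels give the cell type as acute monocytic leukaemia. The groups were cells given FB23-2 for 48 h, cells given FB23 for 48 h and cells given the solvent DMSO for 48 h, with 3 libraries in each group and 9 in all. The series title describes an inhibition of FTO, a demethylase that acts on N6-methyladenosine in RNA, and the labels name no genetic change in any group and no dose. The 2 compounds were therefore compared at the same time but not at doses known to match. Nothing in the labels says that the 3 libraries of a group came from separate cultures, so p-values may measure only technical spread.

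NRF2, encoded by NFE2L2, is held in the cytoplasm and sent for degradation by KEAP1. Oxidants and electrophiles modify KEAP1, NRF2 then accumulates, pairs with small MAF proteins and binds antioxidant response elements near its target genes. Those targets include enzymes that reduce quinones, make and recycle glutathione, keep thioredoxin and peroxiredoxins reduced, and supply NADPH through the oxidative branch of the pentose phosphate pathway. Leukaemia cells rely on these systems to limit peroxides that arise from their metabolism.

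The core of the antioxidant response element was searched for as TGACNNNGC on either strand in the promoter windows that RefSeq gives for GRCh38.p14, from 250 bases before to 50 bases after the transcription start. Of the 34 genes, 28 matched an entry, and 8 of those 28 (28.6%) held the core. Among all tested genes the share was 1904 of 9823 genes with a window (19.4%), and among the other genes of the same pathways it was 15 of 70 (21.4%). The 8 genes were KEAP1, CBR1, GCLM, MGST1, GSTP1, TXNRD1, PGD and ME1. In GSTP1 and ME1 a match overlaps the heptamer TGACTCA that AP-1 factors also bind. A match describes letters and does not show that a factor binds there. Bases outside the windows were not searched, so a gene without a match may still hold the core elsewhere. Shown here are 4 windows that hold the core, for genes whose RNA differed in opposite directions in the results that follow, and the windows of OSGIN1 and SRXN1, which hold no match and belong to the genes with the greatest rise and the greatest fall among the members with FB23-2. Each is written 5′ to 3′ on the strand of its gene, with matches to the core in capitals.
PGD (chr1:10398814-10399113, plus strand): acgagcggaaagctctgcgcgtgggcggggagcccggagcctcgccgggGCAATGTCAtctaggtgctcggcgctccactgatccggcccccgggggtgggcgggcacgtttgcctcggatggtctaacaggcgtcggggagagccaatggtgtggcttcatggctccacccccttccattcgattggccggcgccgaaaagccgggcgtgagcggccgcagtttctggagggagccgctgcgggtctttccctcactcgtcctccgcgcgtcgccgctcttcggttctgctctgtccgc
GCLM (chr1:93909381-93909680, minus strand): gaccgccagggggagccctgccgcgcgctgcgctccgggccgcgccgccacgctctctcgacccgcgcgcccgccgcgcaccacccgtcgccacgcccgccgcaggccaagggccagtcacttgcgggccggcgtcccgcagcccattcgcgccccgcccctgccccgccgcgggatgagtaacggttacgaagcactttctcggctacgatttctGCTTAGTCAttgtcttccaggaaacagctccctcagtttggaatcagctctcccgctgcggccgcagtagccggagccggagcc
GSTP1 (chr11:67583562-67583861, plus strand): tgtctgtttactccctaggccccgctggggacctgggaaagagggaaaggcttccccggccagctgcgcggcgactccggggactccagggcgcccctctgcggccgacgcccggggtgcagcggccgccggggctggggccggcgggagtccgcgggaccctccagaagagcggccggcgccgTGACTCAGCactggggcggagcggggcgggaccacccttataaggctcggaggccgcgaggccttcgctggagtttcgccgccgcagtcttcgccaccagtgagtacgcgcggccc
TXNRD1 (chr12:104215529-104215828, plus strand): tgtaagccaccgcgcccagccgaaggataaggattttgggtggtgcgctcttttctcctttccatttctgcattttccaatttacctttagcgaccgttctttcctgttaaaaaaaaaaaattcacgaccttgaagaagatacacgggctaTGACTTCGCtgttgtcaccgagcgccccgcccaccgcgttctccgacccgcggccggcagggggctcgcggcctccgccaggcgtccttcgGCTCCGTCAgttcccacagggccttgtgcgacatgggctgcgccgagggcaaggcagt
OSGIN1 (chr16:83952990-83953289, plus strand): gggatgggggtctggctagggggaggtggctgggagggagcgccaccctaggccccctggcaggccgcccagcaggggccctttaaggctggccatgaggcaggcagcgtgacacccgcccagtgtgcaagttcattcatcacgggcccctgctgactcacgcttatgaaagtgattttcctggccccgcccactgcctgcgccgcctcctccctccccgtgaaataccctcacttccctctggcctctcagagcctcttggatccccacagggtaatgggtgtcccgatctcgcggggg
SRXN1 (chr20:653151-653450, minus strand): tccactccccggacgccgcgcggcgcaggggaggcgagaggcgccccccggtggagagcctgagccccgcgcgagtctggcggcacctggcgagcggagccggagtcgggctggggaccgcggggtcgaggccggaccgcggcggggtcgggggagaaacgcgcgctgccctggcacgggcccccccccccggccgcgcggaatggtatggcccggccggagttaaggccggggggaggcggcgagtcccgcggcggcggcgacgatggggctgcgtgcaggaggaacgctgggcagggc
PGD holds 1 match that starts 201 bases before the transcription start, GCLM 1 at 34 bases before it and GSTP1 1 at 66 bases before it. TXNRD1 holds 2 matches in the window shown, at 99 and 8 bases before the start.

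The libraries held between 12360291 and 38410750 expected counts each, and 13365 genes passed the filter on low counts. Of the 34 members 33 passed. GPX1, a glutathione peroxidase that GENCODE release 29 lists as a polymorphic pseudogene, did not pass, with 6 counts summed over the FB23-2 libraries, 12 over the FB23 libraries and 7 over the DMSO libraries. The markers of the labelled cell type were almost absent: MPO and CTSG, granule proteins of promyelocytes, had 0 counts in all 9 libraries, and the summed TPM of 5 granule markers was 1.05 to 1.77 with FB23-2, 0.23 to 0.78 with FB23 and 0.76 to 1.56 with DMSO. The summed TPM of 8 erythroid markers, globins among them, was 3870 to 4439 with FB23-2, 30982 to 33325 with FB23 and 27039 to 28623 with DMSO. The defining markers of a promyelocyte thus go against the label, and the cells are called by their label only.

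FB23-2 and the oxidative stress genes were examined first. Among the 33 tested members, 7 were higher and 25 lower in FB23-2 cells than in DMSO cells at an adjusted p under 0.05, and ABCC1 was not called. Of all 13365 genes tested in this comparison, 82.6% were called, 41.3% higher and 41.3% lower, beside 32 of 33 members called, and the difference between members and other genes was not tested. In CPM, read counts scaled with TMM factors, the FB23-2 and DMSO libraries did not overlap for any of the 32 called members, as for 84.2% of all tested genes. In TPM as deposited, the libraries of these groups did overlap for AKR1C3, GCLM, ME1 and SOD2. A log2 fold change of at least 1 in size was reached by 2 members that were higher and 4 that were lower, where 36.8% of all tested genes reached it. The median log2 fold change was -0.57 over the 33 members, against 0.01 over all tested genes and 0 over the other genes of the same pathways. The median size of the change without its sign was 0.67 on the log2 scale for members and 0.73 for all genes. The 7 that were higher were NFE2L2, NQO1, GCLC, GPX4, TXNRD1, PGD and OSGIN1.

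With FB23 the median size of the change, without its sign, was 0.13 on the log2 scale for members and 0.14 for all tested genes. In FB23 cells 12 members were higher and 3 lower than in DMSO cells, with 18 not called, where 23.5% of all tested genes were called, 12.3% higher and 11.2% lower. The split of all genes called with FB23 depended on the setting: 1647 higher and 1497 lower in the fit reported here, 2120 and 1088 with no filter on low counts, 1881 and 1172 with library totals, and 1959 and 2549 after correction for GC content and length. Members split 12 higher and 3 lower, 13 and 3, 12 and 3, and 12 and 4 under the same settings. The 12 were NQO1, NQO2, AKR1C1, AKR1C3, GCLM, GSS, GPX4, TXNRD2, SRXN1, PRDX1, PGD and OSGIN1, and the 3 were KEAP1, TKT and CAT. The members' median log2 fold change was 0.08, against 0 over all tested genes. CPM values of FB23 and DMSO libraries did not overlap for 15 members that were higher and 5 that were lower in FB23 cells, where 37.9% of all tested genes did not overlap. OSGIN1 alone reached a log2 fold change of 1, as 1.16% of all tested genes did. Both comparisons use the same 3 DMSO libraries, so their values are given side by side and no agreement between them is counted. In bulk RNA, fewer cells of a type and less RNA per cell cannot be told apart.

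**Figure D1:**
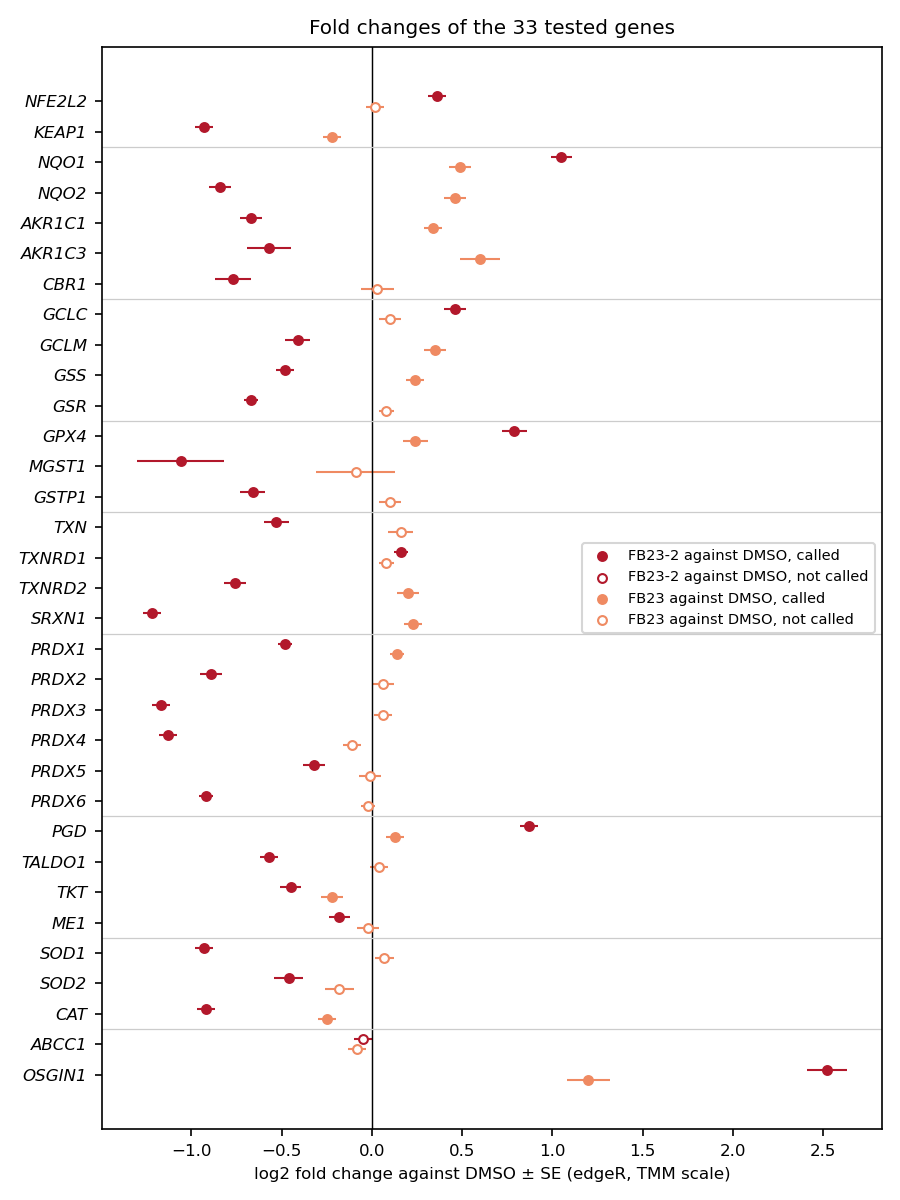
Log2 fold changes against DMSO with their standard errors for the 33 tested genes, grouped by role, from the edgeR fit on 3 libraries per group. Filled points passed an adjusted p under 0.05. FB23-2 points run from -1.22 for SRXN1 to 2.52 for OSGIN1, and FB23 points from -0.25 for CAT to 1.2 for OSGIN1.

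The regulators themselves are given in CPM, read counts brought to a common library size with TMM factors, a scale that allows a gene to be compared between libraries but not with other genes. NFE2L2 had 115, 110.4 and 112 CPM in the FB23-2 libraries, 87.8, 90.3 and 88.1 in the FB23 libraries and 90.2, 87.8 and 84.5 in the DMSO libraries. Every FB23-2 library was above every other library, and FB23 and DMSO libraries overlapped. The log2 fold change of NFE2L2 was 0.36 ± 0.05 (SE, adjusted p = 9e-07) in FB23-2 cells and 0.02 ± 0.05 (adjusted p = 0.793) in FB23 cells, each against DMSO. KEAP1, the adaptor that sends NRF2 for degradation, had 109.9, 108 and 96.2 CPM with FB23-2, 165, 168 and 182 with FB23 and 199.7, 195 and 206 with DMSO. The 3 groups of KEAP1 values did not overlap, with FB23-2 lowest and DMSO highest. KEAP1 fell to 0.524 times the DMSO level in FB23-2 cells (log2 fold change -0.93 ± 0.05, adjusted p = 3.05e-11) and to 0.858 times in FB23 cells (-0.22 ± 0.05, adjusted p = 0.00689). Exons of NFE2L2 overlap AGPS on the opposite strand, whose log2 fold change with FB23-2 was -1.28, and the strand setting of the counting is not given in the sources used here.

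The quinone and carbonyl reductases use NADPH or NADH to reduce quinones, ketones and aldehydes. NQO1, a standard readout of NRF2 activity that reduces quinones by 2 electrons at once, had 104, 102 and 109 CPM in FB23-2 libraries, 66.0, 72.6 and 74.1 in FB23 libraries and 51.9, 52.2 and 47.9 in DMSO libraries. The groups did not overlap and both compounds lay above DMSO. NQO1 was 2.07-fold higher with FB23-2 (log2 1.05 ± 0.06, adjusted p = 8.17e-12) and 1.41-fold higher with FB23 (0.49 ± 0.06, adjusted p = 1.6e-05). The related NQO2, which uses dihydronicotinamide riboside in place of NADPH, went the other way with FB23-2. Its levels were 41.2, 45.1 and 42.6 CPM with FB23-2, 101, 105 and 109.8 with FB23 and 81.9, 75.8 and 72.5 with DMSO. FB23-2 libraries were thus all below DMSO and FB23 libraries all above it, with log2 fold changes of -0.84 ± 0.06 (adjusted p = 3.98e-10) and 0.46 ± 0.06 (adjusted p = 2.5e-05). Part of the NQO2 exons overlaps LINC01011 on the same strand.

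AKR1C1 and AKR1C3 reduce ketosteroids and lipid aldehydes. AKR1C3 had 6.41, 5.80 and 7.41 CPM with FB23-2, 16.3, 13.5 and 14.5 with FB23 and 8.96, 9.43 and 10.5 with DMSO. The 3 groups were again in separate ranges, with log2 fold changes of -0.57 ± 0.12 (adjusted p = 0.000292) for FB23-2 and 0.60 ± 0.11 (adjusted p = 0.000695) for FB23. AKR1C1 averaged 40.5 ± 2.77 CPM with FB23-2, 81.8 ± 1.80 with FB23 and 64.6 ± 1.22 with DMSO (SD, n = 3), and was called lower with FB23-2 (-0.67 ± 0.06) and higher with FB23 (0.34 ± 0.05). AKR1C1 is nearly identical to AKR1C2, so reads may be split between them in an uncertain way; AKR1C2 had log2 fold changes of -0.43 with FB23-2 and 0.39 with FB23. CBR1, a carbonyl reductase, averaged 9.44 ± 0.783 CPM with FB23-2, 16.2 ± 1.79 with FB23 and 16.2 ± 0.946 with DMSO, and was called lower with FB23-2 (-0.77 ± 0.10) and not called with FB23 (0.03 ± 0.09, adjusted p = 0.876). In all, 1 of 5 reductases was higher and 4 were lower with FB23-2, beside 41.3% of all tested genes each way, and 4 of 5 were higher with FB23, beside 12.3%. After correction for GC content and length, the FB23-2 value of AKR1C3 was -0.19 (adjusted p = 0.144), no longer called, and that of AKR1C1 was -0.25.

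**Figure D2:**
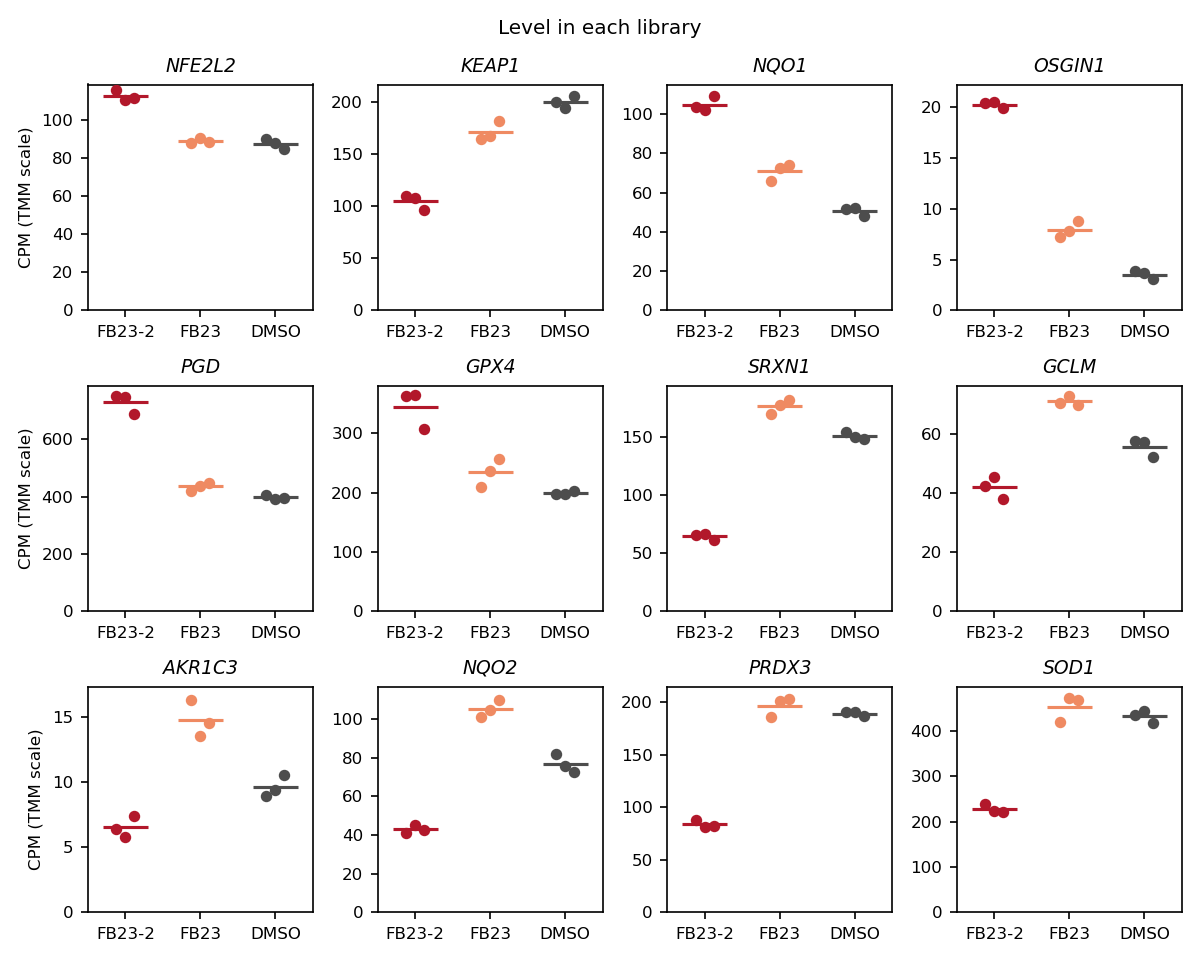
Level of 12 members in each of the 9 libraries, in CPM on the TMM scale with axes from 0; horizontal lines are means of 3 libraries. NQO1 and OSGIN1 show FB23 between FB23-2 and DMSO, whereas SRXN1, GCLM, AKR1C3 and NQO2 show FB23-2 below DMSO and FB23 above it.

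Glutathione is made by glutamate-cysteine ligase, whose catalytic subunit is GCLC and whose modifier subunit is GCLM, and then by glutathione synthetase, GSS. The subunits of the ligase moved apart with FB23-2. GCLC had 41.2, 41.5 and 41.0 CPM in FB23-2 libraries, 31.2, 31.5 and 33.1 in FB23 libraries and 30.5, 29.01 and 30.2 in DMSO libraries, and GCLM had 42.4, 45.6 and 38.04 with FB23-2, 70.7, 73.1 and 70.1 with FB23 and 57.8, 57.6 and 52.4 with DMSO. All FB23-2 libraries were above DMSO for the catalytic subunit and below it for the modifier subunit. The log2 fold changes with FB23-2 were 0.46 ± 0.06 for GCLC (adjusted p = 1.07e-06) and -0.41 ± 0.07 for GCLM (adjusted p = 1.63e-05). With FB23, GCLM was higher (0.35 ± 0.06, adjusted p = 0.000723), and GCLC was not called (0.10 ± 0.06, adjusted p = 0.252) although its FB23 and DMSO libraries did not overlap. In TPM, which is per length and lets genes be compared, GCLC averaged 19.5 ± 0.651 and GCLM 14.3 ± 0.929 with FB23-2, against 11.9 ± 0.259 and 16.0 ± 0.773 with DMSO (SD, n = 3), so the order of the subunits differed between these groups.

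GSS averaged 69.7 ± 2.03 CPM with FB23-2, 115 ± 8.27 with FB23 and 97.4 ± 1.12 with DMSO, and was called lower with FB23-2 (-0.48 ± 0.05) and higher with FB23 (0.24 ± 0.05, adjusted p = 0.00314). GSR, which returns oxidised glutathione to its reduced form with NADPH, had 109, 107 and 113 CPM with FB23-2, 188, 184 and 181 with FB23 and 177, 175 and 172 with DMSO. FB23-2 libraries were far below the other groups, and the FB23 libraries lay just above the DMSO ones. GSR fell by 0.67 ± 0.04 on the log2 scale with FB23-2 (adjusted p = 9.48e-11) and was not called with FB23 (0.08 ± 0.04, adjusted p = 0.21).

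Of the 3 tested members among the glutathione peroxidases and transferases, GPX4, the selenoenzyme that reduces lipid hydroperoxides in membranes and protects from ferroptosis, was the one that rose with FB23-2. It had 363, 364 and 308 CPM in FB23-2 libraries, 209.7, 237 and 256 in FB23 libraries and 198, 198 and 203 in DMSO libraries. No groups overlapped, and the FB23-2 and FB23 libraries varied more than the DMSO libraries. GPX4 was 1.73-fold higher with FB23-2 (log2 0.79 ± 0.07, adjusted p = 6.83e-09) and 1.18-fold higher with FB23 (0.24 ± 0.07, adjusted p = 0.0189). The FB23 call was lost without DMSO replicate 1, without DMSO replicate 2, without FB23 replicate 2 or without FB23 replicate 3, with adjusted p of 0.0537 to 0.0707. MGST1, a microsomal transferase at a low level, had 2.32, 3.05 and 2.31 CPM with FB23-2, 2.54, 5.22 and 6.29 with FB23 and 4.88, 5.72 and 5.37 with DMSO. Its FB23 libraries spanned nearly the whole range, so that only FB23-2 and DMSO were separate, with a log2 fold change of -1.06 ± 0.24 (adjusted p = 0.000644). GSTP1, a cytosolic transferase that joins glutathione to electrophiles, was the most abundant member in every group, with 1561 ± 47.6 TPM in FB23-2 cells, 2266 ± 151 in FB23 cells and 2087 ± 20.8 in DMSO cells (SD, n = 3). It fell by 0.66 ± 0.07 on the log2 CPM scale with FB23-2 (adjusted p = 4.85e-08) and was not called with FB23 (0.10 ± 0.06, adjusted p = 0.284); without FB23 replicate 1 the FB23 value was 0.18 (adjusted p = 0.0232).

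The thioredoxin system passes electrons from NADPH through thioredoxin reductase to thioredoxin and so to peroxiredoxins. SRXN1, sulfiredoxin, which repairs over-oxidised peroxiredoxins and is a classical NRF2 target, fell the most of all 33 tested members with FB23-2. Its levels were 65.2, 66.8 and 61.4 CPM with FB23-2, 169.8, 178 and 182 with FB23 and 154, 149.7 and 148 with DMSO. FB23-2 libraries held under 0.5 times the level of any DMSO library, and all FB23 libraries were above all DMSO libraries. The log2 fold change of SRXN1 was -1.22 ± 0.05 with FB23-2 (adjusted p = 1.21e-13) and 0.23 ± 0.05 with FB23 (adjusted p = 0.00153). TXNRD1, the cytosolic reductase, had 405, 388 and 405 CPM with FB23-2, 392, 376 and 362 with FB23 and 367, 359.7 and 343 with DMSO. FB23 libraries overlapped both other groups, and TXNRD1 was called for FB23-2 at a small size, 1.12-fold (log2 0.16 ± 0.04, adjusted p = 0.00272).

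TXNRD2, the mitochondrial reductase, averaged 59.9 ± 5.57 CPM with FB23-2, 116 ± 6.34 with FB23 and 101 ± 3.42 with DMSO (SD, n = 3), and was called lower with FB23-2 (-0.76 ± 0.06) and higher with FB23 (0.20 ± 0.06, adjusted p = 0.0213). The FB23 call of TXNRD2 was lost without DMSO replicate 2, without DMSO replicate 3 or without FB23 replicate 3, with adjusted p of 0.0579 to 0.102, and after correction for GC content and length its value was 0.13. TXN, thioredoxin itself, averaged 28.0 ± 0.650 CPM with FB23-2, 45.9 ± 4.73 with FB23 and 40.6 ± 1.204 with DMSO. It was called lower with FB23-2 (-0.53 ± 0.07, adjusted p = 2.17e-06) but not after correction for GC content and length (-0.04, adjusted p = 0.628). With FB23 it was not called (0.16 ± 0.07, adjusted p = 0.103), and without FB23 replicate 3 it was (0.21, adjusted p = 0.0339).

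Peroxiredoxins reduce hydrogen peroxide through a reactive cysteine. All 6 were called lower with FB23-2, beside 41.3% of all tested genes, and none rose under any of the scalings tried. However, PRDX5 was no longer called on the TPM scale (-0.08, adjusted p = 0.134). PRDX1 was no longer called after correction for GC content and length (-0.07, adjusted p = 0.0783). PRDX3, the mitochondrial member, fell the most, with 87.8, 81.3 and 82.0 CPM in FB23-2 libraries, 186, 201 and 203 in FB23 libraries and 190.2, 190.0 and 187 in DMSO libraries. FB23-2 libraries were all below the others, and FB23 and DMSO libraries overlapped. The log2 fold change of PRDX3 was -1.17 ± 0.05 with FB23-2 (adjusted p = 2.26e-13) and 0.06 ± 0.05 with FB23 (adjusted p = 0.401). PRDX1, an abundant cytosolic member and NRF2 target, had 274, 258 and 281 CPM with FB23-2, 414, 415 and 419.7 with FB23 and 394, 373 and 369 with DMSO. It stood in 3 separate ranges, with log2 fold changes of -0.48 ± 0.04 for FB23-2 (adjusted p = 1.44e-08) and 0.14 ± 0.04 for FB23 (adjusted p = 0.0321). That FB23 call was lost without DMSO replicate 2, without DMSO replicate 3 or without FB23 replicate 2, with adjusted p of 0.076 to 0.124. It was also lost with limma on the TPM scale (0.16, adjusted p = 0.0534). Exons of PRDX1 overlap MMACHC on the opposite strand.

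Of the other peroxiredoxins, PRDX4, of the endoplasmic reticulum, averaged 51.0 ± 0.995 CPM with FB23-2, 103 ± 6.85 with FB23 and 112 ± 3.78 with DMSO (SD, n = 3), a log2 fold change with FB23-2 of -1.13 ± 0.05. PRDX6, which reduces phospholipid hydroperoxides, averaged 202 ± 9.05, 377 ± 5.86 and 382 ± 9.97 CPM in the same order of groups, a change of -0.92 ± 0.04. PRDX5 averaged 164 ± 7.40 CPM with FB23-2, 203 ± 23.0 with FB23 and 204 ± 6.43 with DMSO, a change of -0.32 ± 0.06. None of these 3 was called with FB23, where their log2 fold changes ran from -0.11 to -0.01, although PRDX4 was called lower without FB23 replicate 3 (-0.17, adjusted p = 0.0184). PRDX2, the main peroxiredoxin of red cells, averaged 157 ± 9.63 CPM with FB23-2, 303 ± 25.3 with FB23 and 291 ± 2.37 with DMSO, with changes of -0.89 ± 0.06 for FB23-2 and 0.06 ± 0.06 for FB23. The fall of PRDX2 with FB23-2 stands beside the fall of the summed erythroid markers given above, and the part of that fall in this result was not tested. Summed over the 6 genes, the level was 2026 ± 33.5 TPM with FB23-2, 2886 ± 21.2 with FB23 and 2768 ± 18.6 with DMSO.

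Members of the pentose phosphate pathway differed in direction with FB23-2, PGD being higher and TALDO1 and TKT lower. PGD, 6-phosphogluconate dehydrogenase, the enzyme of the oxidative branch that makes ribulose 5-phosphate and NADPH, had 751, 748 and 687 CPM with FB23-2, 420.1, 438 and 448 with FB23 and 405, 392 and 395 with DMSO. FB23-2 libraries stood well above the rest, while the lowest FB23 library was only just above the highest DMSO library. PGD was 1.83-fold higher with FB23-2 (log2 0.87 ± 0.05, adjusted p = 5.29e-12) and 1.10-fold higher with FB23 (0.13 ± 0.05, adjusted p = 0.043). That FB23 call was lost without any 1 of the DMSO libraries, without FB23 replicate 2 or 3 and without FB23-2 replicate 1 or 2, with adjusted p of 0.0518 to 0.143, and with size factors computed by the RLE method (adjusted p = 0.0651). TALDO1 and TKT, transaldolase and transketolase, run the non-oxidative branch, which exchanges sugar phosphates with glycolysis.

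TALDO1 had 152, 147 and 143 CPM in FB23-2 libraries, 222, 219 and 233 in FB23 libraries and 231.29, 214 and 213 in DMSO libraries. Only FB23-2 stood apart, at -0.57 ± 0.05 on the log2 scale (adjusted p = 3.18e-09; 0.04 ± 0.05 with FB23, adjusted p = 0.631). TKT had 409, 428 and 360.2 CPM with FB23-2, 445, 461 and 494 with FB23 and 559, 531 and 543 with DMSO. Both compounds lay below DMSO without overlap, with log2 fold changes of -0.45 ± 0.06 for FB23-2 (adjusted p = 1.29e-06) and -0.22 ± 0.06 for FB23 (adjusted p = 0.0101; 0.0549 without DMSO replicate 1). ME1, cytosolic malic enzyme, which makes NADPH from malate, averaged 36.5 ± 0.715 CPM with FB23-2, 40.6 ± 0.498 with FB23 and 41.2 ± 1.51 with DMSO. Its log2 fold change with FB23-2 of -0.18 ± 0.06 (adjusted p = 0.00798) depended on the scale: it was -0.03 with library totals (adjusted p = 0.657), 0 with upper-quartile factors and 0.07 on the TPM scale (adjusted p = 0.295). In TPM, PGD stood at 602 ± 8.90 with FB23-2, 307 ± 4.12 with FB23 and 277 ± 1.37 with DMSO, and TALDO1 at 266 ± 3.10 with FB23-2, 348 ± 7.82 with FB23 and 335 ± 11.04 with DMSO. PGD was thus above TALDO1 in FB23-2 cells and below it in the other groups.

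Superoxide dismutases turn superoxide into hydrogen peroxide and catalase breaks hydrogen peroxide down. SOD1, the cytosolic copper-zinc enzyme, had 239, 223 and 221 CPM with FB23-2, 420.1, 473 and 469 with FB23 and 436, 444 and 418 with DMSO. FB23-2 libraries held little more than 0.5 times the level of the others, and FB23 and DMSO overlapped. SOD1 fell by 0.93 ± 0.05 on the log2 scale with FB23-2 (adjusted p = 1.28e-11) and had a value of 0.07 ± 0.05 with FB23 (adjusted p = 0.338); after correction for GC content and length the FB23-2 value was -0.45. CAT, catalase, had 42.7, 44.7 and 45.0 CPM with FB23-2, 70.8, 71.0 and 69.1 with FB23 and 85.2, 87.9 and 77.7 with DMSO. Catalase formed 3 separate ranges with DMSO highest, at -0.92 ± 0.05 for FB23-2 (adjusted p = 3.54e-11) and -0.25 ± 0.05 for FB23 (adjusted p = 0.00249). Catalase is abundant in red cells, and the summed erythroid markers were lower with FB23-2 but higher with FB23 than with DMSO, so they did not move with catalase under FB23; their part in the FB23-2 result was not tested. SOD2, the mitochondrial manganese enzyme, averaged 26.8 ± 2.79 CPM with FB23-2, 32.2 ± 2.82 with FB23 and 36.8 ± 2.11 with DMSO (SD, n = 3), and was called with FB23-2 (-0.46 ± 0.08) but not with FB23 (-0.18 ± 0.08, adjusted p = 0.12). SOD2 exons overlap WTAP and ACAT2 on the opposite strand, and ACAT2 rose with FB23-2 by a log2 fold change of 1.46.

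OSGIN1, an oxidative stress response gene that restrains growth, rose the most of all members with both compounds. It had 20.3, 20.5 and 19.9 CPM in FB23-2 libraries, 7.21, 7.83 and 8.79 in FB23 libraries and 3.84, 3.65 and 3.08 in DMSO libraries. The order of the groups was FB23-2, FB23, DMSO with wide gaps between them. OSGIN1 was 5.73-fold higher with FB23-2 (log2 2.52 ± 0.11, adjusted p = 5.59e-13) and 2.29-fold higher with FB23 (1.2 ± 0.12, adjusted p = 4e-06). ABCC1, a pump that exports glutathione conjugates, averaged 138 ± 7.27 CPM with FB23-2, 135 ± 3.76 with FB23 and 143 ± 4.76 with DMSO, with log2 fold changes of -0.05 ± 0.05 (adjusted p = 0.332) and -0.08 ± 0.05 (adjusted p = 0.239). Its direction with FB23-2 turned with the scale: 0.12 with upper-quartile factors (adjusted p = 0.0259), 0.19 on the TPM scale (adjusted p = 0.0034) and -0.28 after correction for GC content and length (adjusted p = 1.61e-07).

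**Figure D3:**
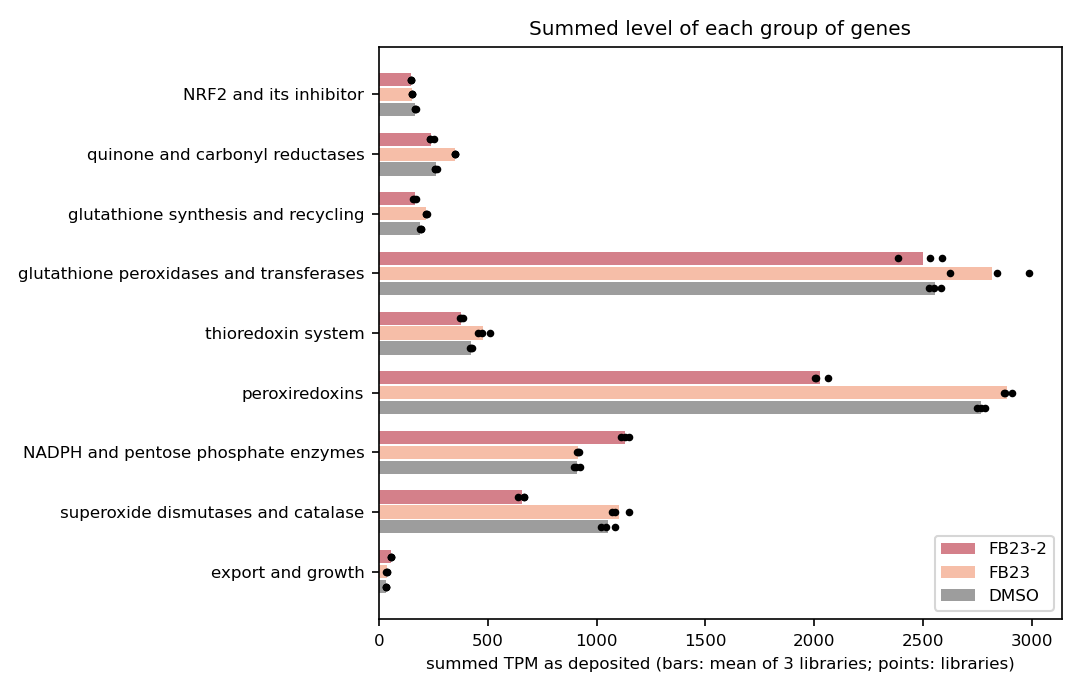
Summed TPM, as deposited, of the members in each role, with bars for the mean of 3 libraries and points for the libraries. Peroxiredoxins and the superoxide dismutases with catalase are lowest in FB23-2 cells, and the 4 NADPH and pentose phosphate enzymes sum to 1130 ± 19.1 TPM there, against 914 ± 3.24 in FB23 cells and 909 ± 14.8 in DMSO cells. PGD carries that order: without it the other 3 sum to 528 ± 10.3 TPM in FB23-2 cells, 607 ± 6.44 in FB23 cells and 632 ± 13.9 in DMSO cells.

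In TPM the 34 members together summed to 7303 ± 59.4 TPM in FB23-2 cells, 8959 ± 187 in FB23 cells and 8357 ± 14.2 in DMSO cells (SD, n = 3), with no overlap between groups. A few abundant genes carry these sums. After GSTP1, the highest members in DMSO cells were SOD1 at 972 ± 28.2 TPM, PRDX1 at 781 ± 17.1 and PRDX2 at 583 ± 10.8. In FB23-2 cells GPX4 was second, at 935 ± 57.7 TPM, followed by PRDX1 at 660.2 ± 46.4, SOD1 at 603 ± 17.7 and PGD at 602 ± 8.90, of which SOD1 and PGD did not differ beyond their spread. At the low end OSGIN1 stood at 20.3 ± 0.476 TPM with FB23-2, 6.79 ± 0.476 with FB23 and 2.98 ± 0.306 with DMSO, and MGST1 at 3.997 ± 0.629, 6.20 ± 2.39 and 7.03 ± 0.638 TPM in the same order of groups. The superoxide dismutases with catalase summed to 658 ± 15.9 TPM with FB23-2, 1103 ± 41.1 with FB23 and 1052 ± 32.7 with DMSO.

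The 2 compounds were then compared directly. In FB23-2 cells 6 members were higher and 25 lower than in FB23 cells, with ABCC1 and TXNRD1 not called, where 81.5% of all tested genes were called, 40.4% higher and 41.1% lower. The members' median log2 fold change was -0.71, against 0 over all genes and -0.06 over the other pathway genes. OSGIN1 was higher with FB23-2 by 1.32 ± 0.09 (adjusted p = 3.54e-10), PGD by 0.74 ± 0.05, NQO1 by 0.55 ± 0.05, GPX4 by 0.55 ± 0.07, GCLC by 0.36 ± 0.06 and NFE2L2 by 0.34 ± 0.04. In CPM the FB23-2 and FB23 libraries did not overlap for these 6 genes and for 23 that were lower, as for 81.2% of all tested genes.

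For genes that were lower with FB23-2 and higher with FB23, each against the same DMSO libraries, the direction between the compounds follows from that choice, and the values describe its size. SRXN1 differed by -1.45 ± 0.05, NQO2 by -1.29 ± 0.06, AKR1C3 by -1.17 ± 0.11 and AKR1C1 by -1.01 ± 0.05. TXNRD2 differed by -0.96 ± 0.06, GCLM by -0.76 ± 0.06, GSS by -0.72 ± 0.05 and PRDX1 by -0.62 ± 0.04. A fall of at least 1 on the log2 scale was reached by 6 members, SRXN1, NQO2, AKR1C3, AKR1C1, PRDX3 (-1.23 ± 0.05) and PRDX4 (-1.02 ± 0.05), and a rise of that size by OSGIN1, where 32.2% of all tested genes changed that much. KEAP1, TKT and CAT, which were lower than DMSO with each compound, were lower with FB23-2 than with FB23, KEAP1 at -0.71 ± 0.05, CAT at -0.67 ± 0.05 and TKT at -0.23 ± 0.06.

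For TXNRD1 the difference between the compounds was 0.08, with a 95% interval of -0.01 to 0.18, and for ABCC1 it was 0.03, with an interval of -0.07 to 0.13. Differences up to the ends of these intervals remain possible, and the result does not show that the compounds act alike on these genes. TXNRD1 was called higher with FB23-2 under other scalings (0.25 with upper-quartile factors, 0.32 on the TPM scale) and without FB23 replicate 1 (0.12, adjusted p = 0.027). Scale also decided TKT, which was not called with upper-quartile factors (-0.06) or library totals (-0.10) and was 0.01 on the TPM scale, and ME1, which was -0.15 ± 0.06 (adjusted p = 0.0165) but 0.01 with upper-quartile factors and 0.08 on the TPM scale. The ME1 call was also lost without FB23 replicate 2 (-0.14, adjusted p = 0.0617) or without FB23-2 replicate 1 (-0.13, adjusted p = 0.0864). SOD2, at -0.29 ± 0.08, was not called with upper-quartile factors (-0.12), with library totals (-0.16), on the TPM scale (-0.03) or without FB23-2 replicate 1 (-0.19). MGST1 and PRDX5 were not called on the TPM scale, at -0.51 and -0.09. After correction for GC content and length the differences between the compounds were smaller but still called for AKR1C1 (-0.59), AKR1C3 (-0.77), TXN (-0.16), PRDX1 (-0.21), PRDX4 (-0.59), PRDX6 (-0.60), TALDO1 (-0.34) and SOD1 (-0.52).

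**Figure D4:**
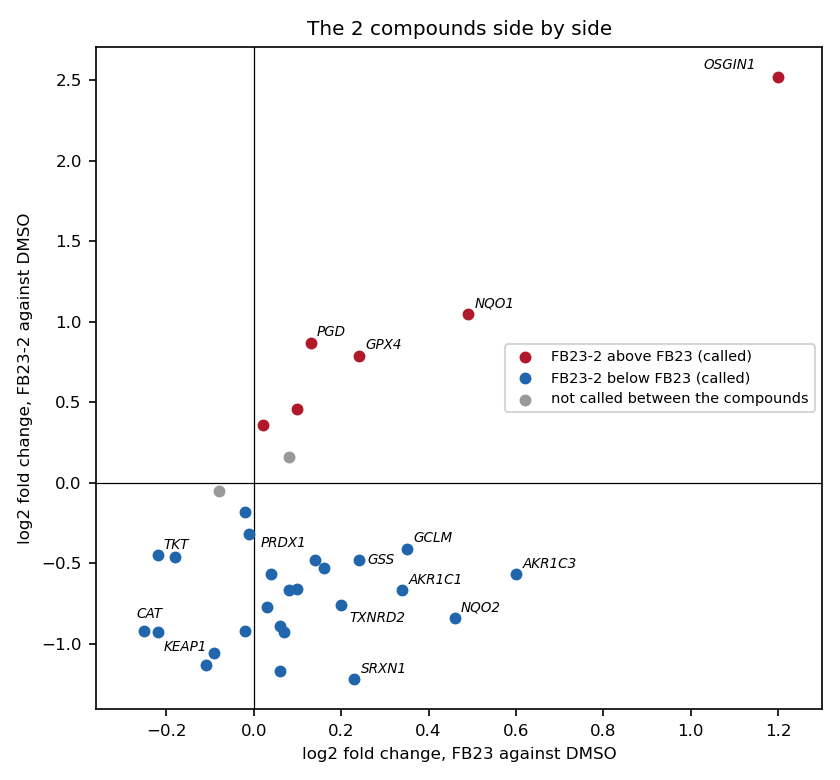
Log2 fold change of each tested member with FB23-2 (vertical axis) and with FB23 (horizontal axis), both against the same 3 DMSO libraries; colours give the call in the direct comparison of FB23-2 with FB23, and the genes called with FB23 are named. NQO1, OSGIN1, GPX4 and PGD lie above 0 on both axes, while NQO2, AKR1C1, AKR1C3, GCLM, GSS, TXNRD2, SRXN1 and PRDX1 lie to the right of 0 and below it.

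The libraries of FB23-2 differ from the rest in composition, so the scale was examined. TMM factors were 1.05 to 1.08 for FB23-2 libraries and 0.954 to 0.988 for the others. Relative to the TMM scale, the median log2 fold change of all genes in FB23-2 against DMSO shifted by 0.17 with upper-quartile factors, 0.15 with library totals and 0.24 on the TPM scale. Each tested member also had a higher value on the TPM scale than on the TMM scale. On the TPM scale 8 members were higher and 23 lower with FB23-2, and the calls of all genes split into 6757 higher and 4260 lower, against 5523 and 5518 on the TMM scale. In FB23-2 against FB23 the TPM scale gave 8 members higher and 20 lower, and all genes split into 6621 higher and 4130 lower, against 5395 and 5495. The members that rose with FB23-2 on the TMM scale had larger values on the TPM scale, 0.61 for NFE2L2 and 0.41 for TXNRD1 among them. Falls shrank there: GCLM to -0.16, GSS to -0.23, PRDX1 to -0.24, TKT to -0.20, SOD2 to -0.21, AKR1C3 to -0.31, TXN to -0.30, TALDO1 to -0.33, GSR to -0.42, GSTP1 to -0.42 and AKR1C1 to -0.43, each still called. After correction for GC content and length, NQO2 was -0.51, PRDX4 -0.70, PRDX5 -0.16 and TALDO1 -0.32.

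**Figure D5:**
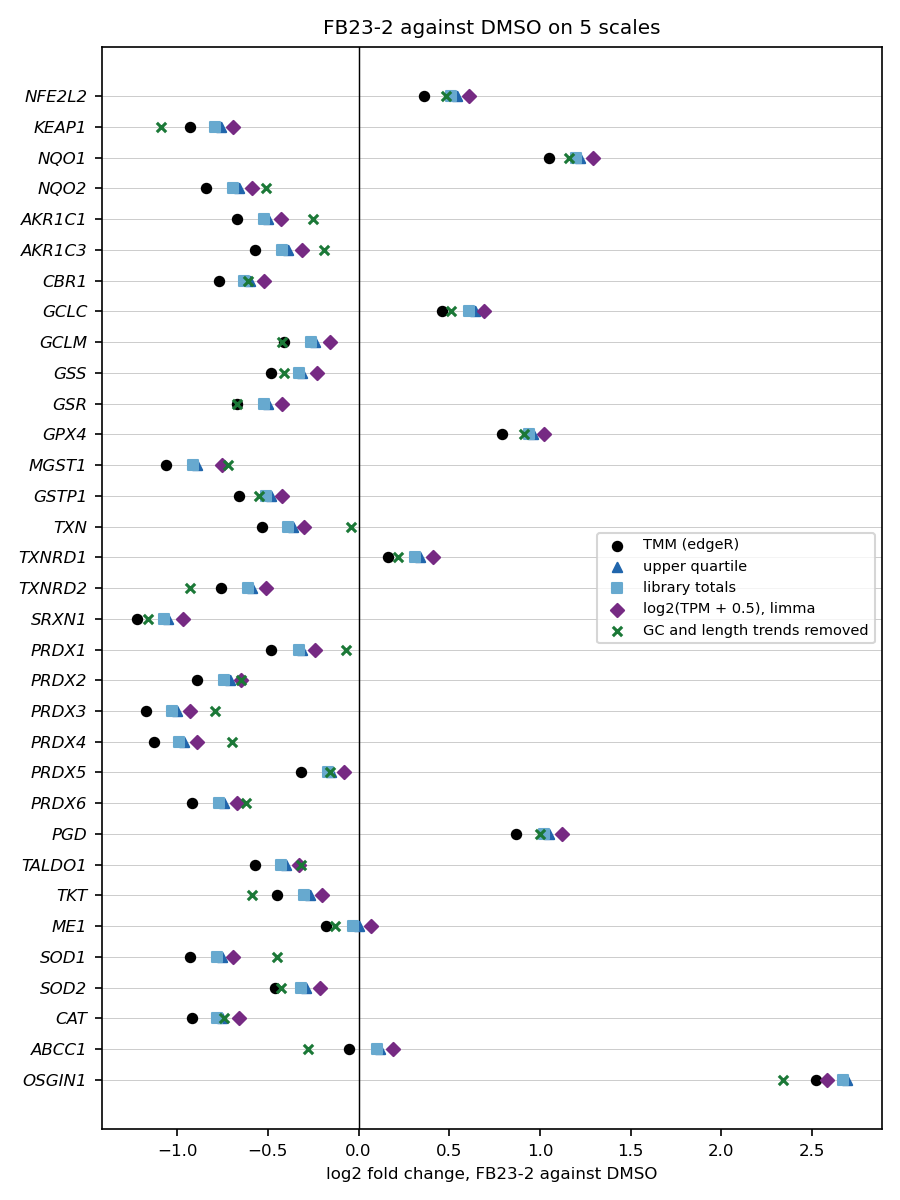
Log2 fold change of each tested member in FB23-2 cells against DMSO cells under 5 ways of scaling. The 7 genes above 0 on the TMM scale stay above 0 on each, SRXN1 and the peroxiredoxins stay below 0 on each, and ME1 and ABCC1 lie on both sides.

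The rest of the pathway was taken from a list of 89 further genes, of which 87 are in the tables and 75 were tested. With FB23-2, 33 of the 75 were higher and 31 lower than with DMSO, beside 41.3% of all tested genes in each direction, so these shares are near the background. With FB23, 20 were higher and 8 lower than with DMSO, beside 12.3% and 11.2% of all tested genes. Between the compounds 32 were higher and 32 lower with FB23-2, beside 40.4% and 41.1%. These same shares of all tested genes are the background for each list that follows. Among partners and repressors of NRF2, 7 of 12 were higher and 5 lower with FB23-2, beside 41.3% each way. SQSTM1, the autophagy receptor that binds KEAP1 and is itself an NRF2 target, averaged 1090.1 CPM with FB23-2, 134.6 with FB23 and 96.9 with DMSO, a log2 fold change of 3.49 ± 0.05 with FB23-2 (adjusted p = 1e-18). BACH2, a repressor that competes at the same DNA elements, was higher by 2.51 ± 0.06, and NFE2, the NRF2 relative of the erythroid and megakaryocytic lineages, was lower, at -1.65 ± 0.05, beside the fall of erythroid markers. MAFF, a small MAF partner, was higher with FB23-2 than with FB23 by 2.49 ± 0.12.

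Of the 17 other NRF2 targets tested, 7 were higher and 6 lower with FB23-2, near the 41.3% of all tested genes in each direction, and 6 were higher and 2 lower with FB23, beside 12.3% and 11.2%. SLC7A11, the cystine importer that feeds glutathione synthesis, averaged 11.001 CPM with FB23-2, 22.9 with FB23 and 28.4 with DMSO, with log2 fold changes of -1.38 ± 0.11 (adjusted p = 1.6e-09) and -0.31 ± 0.10 (adjusted p = 0.0306) against DMSO. ABCC4, an export pump, fell with FB23-2 (-1.67 ± 0.06) and with FB23 (-0.23 ± 0.06), and BLVRB, biliverdin reductase B, which red cells hold in quantity, fell with FB23-2 (-1.63 ± 0.08) and was at 0.08 ± 0.07 with FB23 (adjusted p = 0.47). FTL, ferritin light chain, averaged 4209 CPM with FB23-2, 3854 with FB23 and 2423 with DMSO, at 0.80 ± 0.05 (adjusted p = 8.83e-11) and 0.67 ± 0.05 (adjusted p = 1.89e-07) against DMSO. HMOX1, haem oxygenase 1, had too few counts to be tested.

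In the pentose phosphate pathway, 6 of 15 other tested genes were higher and 8 lower with FB23-2, beside 41.3% of all tested genes each way. H6PD, a hexose 6-phosphate dehydrogenase that makes NADPH in the endoplasmic reticulum, averaged 61.7 CPM with FB23-2, 15.7 with FB23 and 9.24 with DMSO, with log2 fold changes of 2.74 ± 0.08 and 0.79 ± 0.09 against DMSO. RPIA, ribose 5-phosphate isomerase of the non-oxidative branch, averaged 10.2 CPM with FB23-2, 65.7 with FB23 and 84.9 with DMSO, at -3.05 ± 0.07 and -0.37 ± 0.05. With FB23-2, the dehydrogenases H6PD and PGD were higher, and RPIA, TALDO1 and TKT were lower. H6PD and RPIA were named for the size of their changes, so these genes do not describe either branch as a whole.

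Among other thioredoxin and peroxide genes, 7 of 11 were higher and 3 lower with FB23-2, beside 41.3% of all tested genes each way, and 4 of 11 were higher with FB23, beside 12.3%. SESN3, a sestrin induced by FOXO factors, averaged 36.4 CPM with FB23-2, 9.84 with FB23 and 4.13 with DMSO, at 3.12 ± 0.13 and 1.21 ± 0.14. In other glutathione metabolism, 8 of 22 tested genes were higher and 9 lower with FB23-2, near the 41.3% of all tested genes each way, and 4 were higher and 4 lower with FB23, beside 12.3% and 11.2%. GSTZ1, which isomerises maleylacetoacetate in tyrosine breakdown, was higher with FB23-2 (1.11 ± 0.10, adjusted p = 2.1e-08) and with FB23 (0.73 ± 0.11, adjusted p = 0.000124). GGT1, which begins the breakdown of extracellular glutathione, was at -0.22 ± 0.12 with FB23-2 (adjusted p = 0.0923, not called) and lower with FB23 (-0.34 ± 0.12, adjusted p = 0.0424).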

How the data were processed

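Libraries were directional and made from poly(A) RNA, per the labels' protocols. The authors deposited, for each library and gene, RSEM's expected counts and its TPM, which corrects for gene length and depth. The authors also deposited FPKM from RSEM, which was not used. RSEM 1.2.31 and GRCh38 are named by the submitters' processing notes. No aligner, annotation release or strand setting is given in the sources used here.

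For testing, expected counts were rounded and fitted with edgeR 4.0.16 (R 4.3.3): filterByExpr (minimum count 10, minimum total 15), TMM, a quasi-likelihood fit over all 9 libraries, two-sided tests, and Benjamini-Hochberg adjustment over all 13365 tested genes. The threshold for a call was an adjusted p of 0.05. Standard errors were taken from the F statistic, and the common biological coefficient of variation was 5.12%. CPM use TMM scaling, TPM were used as deposited, and limma 3.58.1 and DESeq2 1.42.0 served in alternatives, with a pseudocount of 0.5 for TPM. Coordinates, overlaps and GC content are from GENCODE release 29, which gave GC content for 98.4% of tested genes. The fit was also run on simulated data in which few genes changed. With FB23-2, 82.6% of all tested genes were called against DMSO, so that run cannot show whether the scale holds there.

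The members and lists were chosen with earlier results of these data known. Each member is named. Values of every library are given for NFE2L2, KEAP1 and, in each role, the called members with the largest rise and fall against DMSO at a mean log2 CPM of at least 1. Of other pathway genes, the 4 largest called rises and falls per comparison met the rule, with SLC7A11 and HMOX1 always; some results are not reported here. The summed TPM of 4 lymphoid markers was 30.4 to 34.4 with FB23-2, 4.11 to 4.97 with FB23 and 4.59 to 6.78 with DMSO. For 4 myeloid surface markers it was 56.0 to 60.6 with FB23-2, 53.4 to 55.6 with FB23 and 60.8 to 62.9 with DMSO. For 5 epithelial and fibroblast markers it was 1566 to 1674 with FB23-2, 431 to 449.6 with FB23 and 445 to 456 with DMSO. These markers did not move together. KRT18 averaged 973 TPM with FB23-2 and 288 with DMSO, and KRT19 averaged 621 and 89.4. COL1A1 averaged 6.56 and 0.913. EPCAM went the other way, at 25.5 TPM with FB23-2 and 73.5 with DMSO. COL1A2 was almost absent, with 0 counts summed over the FB23-2 libraries and 1 over the DMSO libraries.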

Additional observations from a re-analysis of the deposited data

How the results depend on the processing

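Each member was refitted under 20 other settings: 3 other scalings, 2 other filters on low counts, DESeq2, limma-voom, limma on TPM, only the 6 libraries compared, replicate block, removal of GC content and length trends, and leaving out each of the 9 libraries. The 33 tested members kept their side of the threshold with no reversal of a call in 650 of 660 refits for FB23-2 against DMSO, 632 for FB23 against DMSO and 632 between the compounds; among these, values called neither in the report nor in the refit changed sign in 1, 16 and 2 refits. Reversals were ABCC1 in FB23-2 against DMSO (0.12 with upper-quartile factors, 0.19 on TPM) and against FB23 (-0.20 with GC and length trends removed), ME1 in FB23-2 against DMSO (0.07 on TPM) and against FB23 (0.01 with upper-quartile factors, 0.08 on TPM), and TKT in FB23-2 against FB23 (0.01 on TPM); the cause was not tested. Other pathway genes lower with FB23, 8 in the report, numbered 5 with library totals, 5 with no filter and 4 on TPM. They numbered 4 with the replicate block and 4 to 8 without each library in turn. With RLE size factors they numbered 10, with limma-voom 9 and after correction for GC content and length 12. Requiring an absolute log2 fold change of at least 1 as well left 4913, 155 and 4300 genes called for FB23-2, for FB23 (both against DMSO) and between the compounds, with 2, 1 and 1 members higher, 4, 0 and 6 members lower, 15, 1 and 9 other pathway genes higher and 12, 0 and 10 lower.

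Without each library in turn, members higher with FB23 ranged from 8 (without DMSO replicate 2) to 13 and genes called with FB23 from 2096 (without DMSO replicate 1) to 3303, against 12 and 3144. Same-numbered libraries did not deviate together (r from -0.14 to 0.11), so numbers were not taken as pairs; with the replicate block, members called were 7 higher and 25 lower, 9 higher and 3 lower, and 6 higher and 25 lower in the 3 comparisons, and PGD, PRDX1 and TXNRD2 lost the FB23 call. GPX1 and HMOX1 had too few counts to be tested.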
